A study of Mus musculus with 9 samples.

Results

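The expression of 53 genes of the TGF-beta and BMP signaling pathways was examined in mouse squamous cell carcinoma (SCC) cells with and without focal adhesion kinase (FAK, encoded by Ptk2). The genes were named for their known roles, as ligands, latency proteins, receptors, Smads, inhibitors and target genes, with earlier results of these data known. Of the 53, 52 were among the 19044 gene identifiers of the count table, and Nog was not. Of these 52, 47 passed edgeR's filter on low counts, which Bmp3, Bmp4, Bmp6, Bmp7 and Bmpr1b did not pass.

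TGF-beta, activin and BMP ligands are secreted dimers that bring type I and type II receptor kinases together. TGF-beta and activin receptors phosphorylate Smad2 and Smad3, and BMP receptors phosphorylate Smad1, Smad5 and Smad9. Both kinds of Smad enter the nucleus with Smad4, where they switch target genes on or off, among them genes whose products damp the signal again. In skin carcinomas the TGF-beta branch is known both for arresting epithelial growth and for accompanying the change of epithelial cells into motile, mesenchymal cells.

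RNA-seq compared 3 cell lines with 3 biological replicates each. The cells came from skin carcinomas that a mutagen and a tumour promoter had raised in FVB mice carrying floxed FAK alleles and a tamoxifen-inducible Cre under the keratin 14 promoter. FAK was deleted in culture with 4-hydroxytamoxifen, which gave the FAK-/- cells. Wild-type FAK (FAK-WT cells) or a kinase-deficient FAK (FAK-kd cells) was then stably put back into a FAK-/- clone by retrovirus, under hygromycin selection. All 3 lines thus shared the deletion, and a difference between lines cannot be told apart from a difference between the selected cell populations. The comparison of FAK-WT with FAK-/- cells asks what depends on FAK, and that of FAK-WT with FAK-kd cells what depends on its kinase activity. Both use the same FAK-WT libraries, so they are not independent of each other.

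FAK-WT replicate 1 held 779755 counts, 2.31% of the median of the other 8 libraries, which held between 25304994 and 37264636. In that library 3 counts correspond to 3.78 CPM (counts scaled to the library total), against 0.0798 to 0.118 CPM in the others, so a low gene listed at 0 there says little. These floors, and the exact intervals of pooled counts given below, cover counting error only. FAK-/- replicate 3 and FAK-kd replicate 1 stood apart from the other libraries of their lines: the chi-square per gene against them was 53.3 to 59.0 and 17.1 to 18.9, while the other pairs among the 8 deep libraries of 1 line gave 3.31 to 5.96. In FAK-/- replicate 3 the ratio to the other FAK-/- libraries followed the GC content of the transcript (Spearman's rho 0.667 across 12055 genes, a description of 1 library), and in FAK-kd replicate 1 it did not (rho -0.022). Ptk2 was at 213 to 216 CPM in FAK-WT, 19.6 to 23.5 in FAK-/- and 155 to 176 in FAK-kd cells, which follows the labels.

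The defining markers of squamous epithelium were close to absent in all 3 lines. Of 12 such markers 10 were in the table, and 7 of them stayed under 1 CPM on average in every line, among them Krt5, Krt14, Krt18, Krt19, Cdh1 and Dsp. The integrins Itga6 and Itgb4 were expressed, and they carried the summed squamous level of 229 to 244 CPM in FAK-WT, 364 to 386 in FAK-/- and 348 to 356 in FAK-kd cells. The 6 mesenchymal markers, led by Vim, summed to between 10490 and 11550 CPM in all libraries. Of 6 fibroblast markers 5 were in the table, with a sum of 1340 to 1981 CPM, and 2 of the 5 passed the test, Pdgfra and Pdgfrb, both lower in FAK-WT cells (log2 fold changes of -1.44 and -2.04 against FAK-/- cells). Col3a1, which carried the fibroblast sum, gave 0.18 ± 0.11 (adjusted p = 0.289), and Thy1 and Fap had at most 2 counts in any library. The 4 endothelial markers summed to at most 2.05 CPM and the 2 leukocyte markers in the table to at most 3.33 CPM. Of the squamous markers, 1 passed the threshold given below as lower in FAK-WT than in FAK-kd cells. Between FAK-kd and FAK-/- cells, 1 squamous marker passed as higher in FAK-kd cells. Of the endothelial markers, 1 passed as higher in FAK-WT cells against both other lines. The part of these marker differences in the results below was not tested, and in bulk RNA fewer cells of a kind and less RNA per cell cannot be told apart.

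The genes that differed by more than the replicate spread were mostly lower in FAK-WT cells, with the activin and BMP binders Fst and Fstl1, the repressors Pmepa1 and Bambi and the target gene Tgfbi among them. A gene was called when edgeR's quasi-likelihood test gave an adjusted p of 0.05 or below and the log2 fold change was at least 1 in size. Against FAK-/- cells, 10 of the 52 genes were called lower in FAK-WT cells, where 3.06% of all 19044 genes were, and 0 were called higher, where 2.32% of all were. The 10 were Inhbb, Ltbp2, Eng, Smad9, Fst, Fstl1, Fstl3, Bambi, Pmepa1 and Tgfbi. Against FAK-kd cells, 8 were called lower (2.89% of all genes) and 0 higher (2.37% of all genes), and the 8 were the same genes without Fst and Bambi. At an unadjusted p under 0.05, 5 genes were higher against FAK-/- cells and 4 against FAK-kd cells, and DESeq2 called 0 higher in both comparisons. DESeq2 called 7 rather than 10 lower against FAK-/- cells and 6 rather than 8 against FAK-kd cells.

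By adjusted p alone, with no limit on the fold change, 21 of the 52 were lower and 2 higher against FAK-/- cells, where 9.96% and 8.01% of all genes were. Against FAK-kd cells 21 were lower and 2 higher, where 10.2% and 7.58% of all genes were. The median log2 fold change of the 52 genes was -0.291 against FAK-/- cells and -0.226 against FAK-kd cells, and that of all genes tested was 0 in both. Between FAK-kd and FAK-/- cells, 1 of the 52 was called higher (0.914% of all genes) and 2 lower (1.09% of all genes), and the median was -0.083. Without FAK-/- replicate 3, 7 rather than 10 genes were called lower against FAK-/- cells, and without FAK-WT replicate 1, 8 were.

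**Figure D1:**
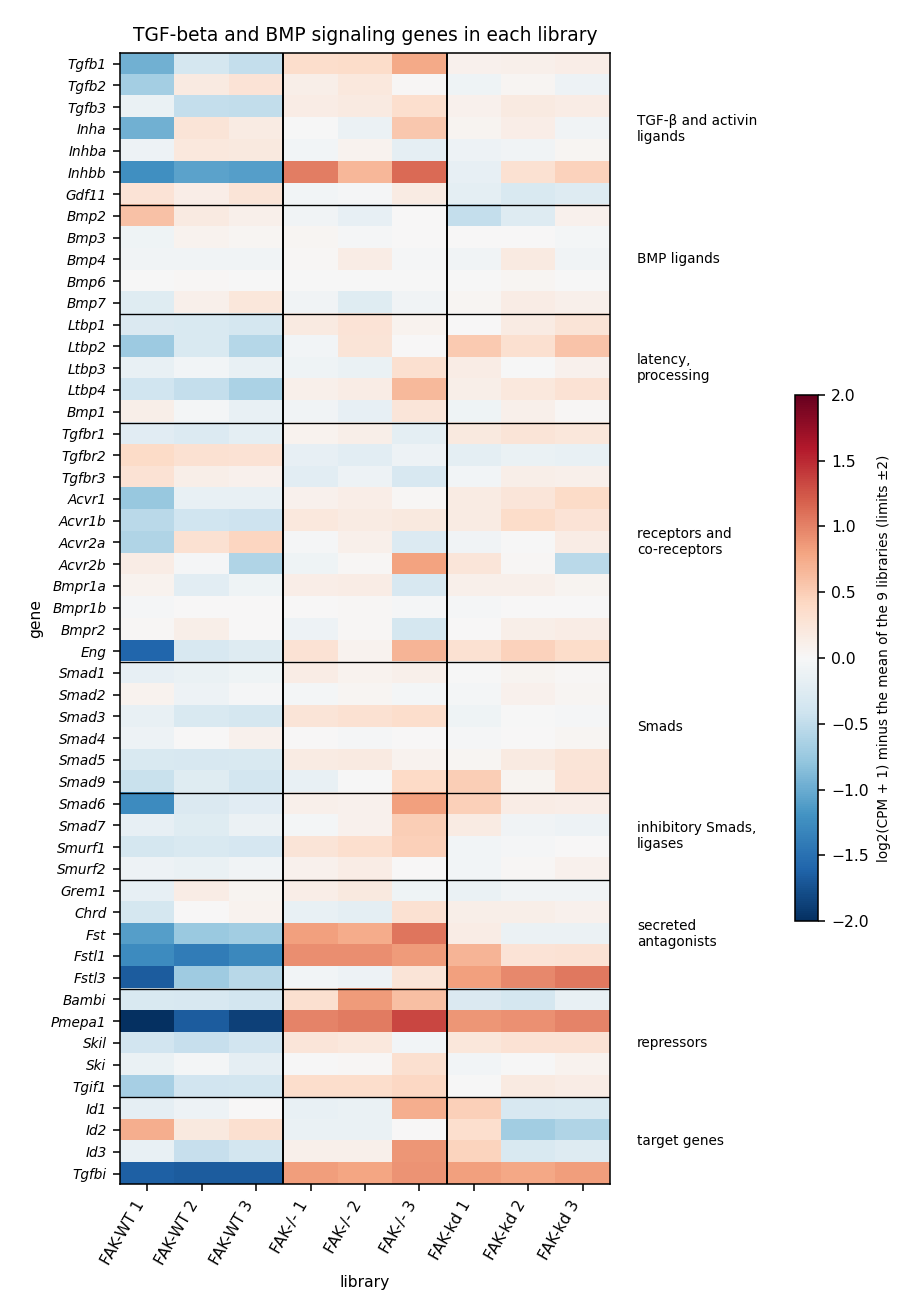
Normalised level of each of the 52 genes (rows, grouped by role) in the 9 libraries (columns), as log2(CPM + 1) minus the gene's mean over the 9 libraries, with the colour limited to ±2. Tgfbi, Pmepa1, Fstl1, Fst and Inhbb are blue in all 3 FAK-WT libraries, and Id1 and Id3 are red in FAK-/- replicate 3 and FAK-kd replicate 1.

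**Figure D2:**
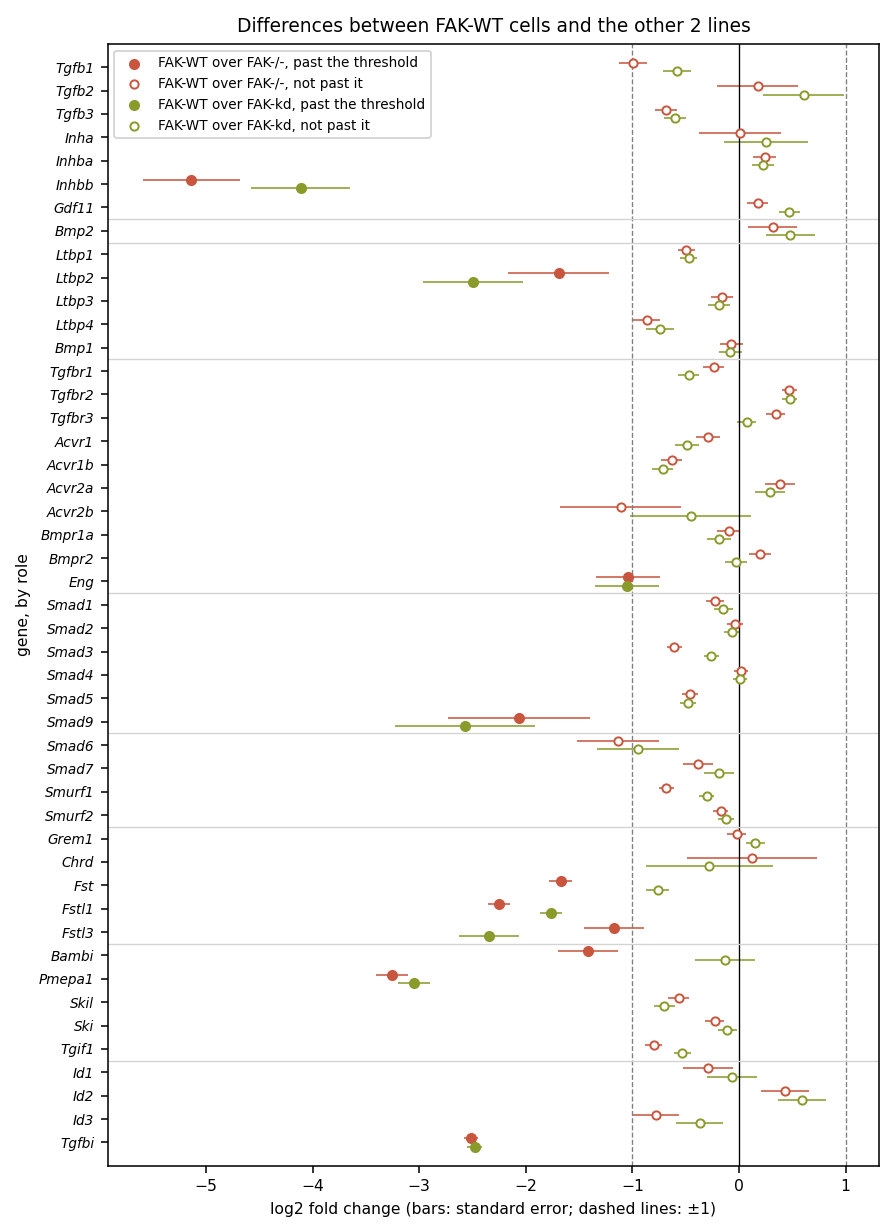
Log2 fold change of FAK-WT over FAK-/- cells and of FAK-WT over FAK-kd cells (horizontal axis, bars are standard errors) for the 47 genes that passed the filter on low counts, with filled points for genes past the threshold. The filled points all lie below 0, the lowest being Inhbb at -5.14 and -4.11.

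Tgfbi and Pmepa1, both known as genes that TGF-beta induces, were low in FAK-WT cells and high in both other lines. Tgfbi encodes a secreted matrix protein that binds integrins. It was at 66.7, 65.2 and 65.1 CPM in the FAK-WT libraries, at 373, 361 and 387 in FAK-/- and at 366, 355 and 371 in FAK-kd libraries. All 6 FAK-/- and FAK-kd libraries were above all FAK-WT libraries, and the values within a line lay close together. FAK-WT cells had 5.72-fold less Tgfbi than FAK-/- cells (log2 fold change -2.52 ± 0.07, SE, adjusted p = 2.41e-12 by edgeR's quasi-likelihood test). Against FAK-kd cells it was 5.58-fold lower (-2.48 ± 0.07, adjusted p = 2.93e-12). FAK-kd and FAK-/- cells differed by -0.04 ± 0.06 (adjusted p = 0.789), which is under the spread between replicates.

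Pmepa1, a membrane protein that takes Smads away from the TGF-beta receptor, showed the same arrangement at a lower level. Its values were 1.26, 3.51 and 2.91 CPM in FAK-WT, 27.4, 28.2 and 35.1 in FAK-/- and 25.4, 26.0 and 27.3 in FAK-kd libraries. The FAK-WT libraries did not overlap those of either other line, and the 1.26 CPM of FAK-WT replicate 1 rests on 1 count. The fold change was -3.25 ± 0.15 against FAK-/- cells (adjusted p = 9.26e-10) and -3.05 ± 0.15 against FAK-kd cells (adjusted p = 1.58e-09), and FAK-kd and FAK-/- cells differed by -0.21 ± 0.11 (adjusted p = 0.33). Without FAK-WT replicate 1 the first was -3.23 and the second -3.02.

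Upstream sequence is shown for Tgfbi, which had the lowest adjusted p of the genes in both comparisons, and for Inhbb, the largest in fold, from the RefSeq promoter windows of build GRCm38.p6. The 250 bases before the start were searched in each window, and the 50 bases after it were not. Of the 52 genes 38 had at least 1 window, and together they had 50. Each stretch below ends where the GENCODE annotation of the same assembly places the first base of the gene, and is written 5′ to 3′ on the gene's strand. Capitals mark matches on either strand to CAGAC, the Smad box, or GGCGCC, the GC box that BMP-activated Smads bind. The AP-1 motif TGACTCA was searched as well, and no 2 of the matches overlapped.
Tgfbi, chr13:56609336-56609522, plus strand: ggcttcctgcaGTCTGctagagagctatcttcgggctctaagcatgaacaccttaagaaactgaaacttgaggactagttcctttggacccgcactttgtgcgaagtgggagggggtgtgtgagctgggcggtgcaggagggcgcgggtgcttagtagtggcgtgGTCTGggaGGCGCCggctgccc
Inhbb, chr1:119422249-119422498, minus strand: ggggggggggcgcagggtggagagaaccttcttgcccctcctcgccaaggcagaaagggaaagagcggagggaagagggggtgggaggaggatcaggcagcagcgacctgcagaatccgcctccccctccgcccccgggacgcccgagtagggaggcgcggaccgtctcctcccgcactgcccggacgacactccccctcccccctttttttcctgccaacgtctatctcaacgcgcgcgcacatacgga
The Tgfbi stretch of 187 bases held 2 matches to the Smad box and 1 to the GC box, and the Inhbb stretch of 250 bases held no match to any of the 3 motifs. Counted per window, the Smad box was in 24 of the 50 windows (48%) and in 42.2% of all 32851 windows. The GC box was in 13 of the 50 (26%) and in 9.59% of all windows, and the AP-1 motif in 0 of the 50 and in 4.46% of all. Of the 8 genes called lower in both comparisons 7 had a window, of which 4 held the Smad box in at least 1 window, 2 the GC box and 0 the AP-1 motif. A match describes the letters in this window and is not a measured binding site.

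**Figure D3:**
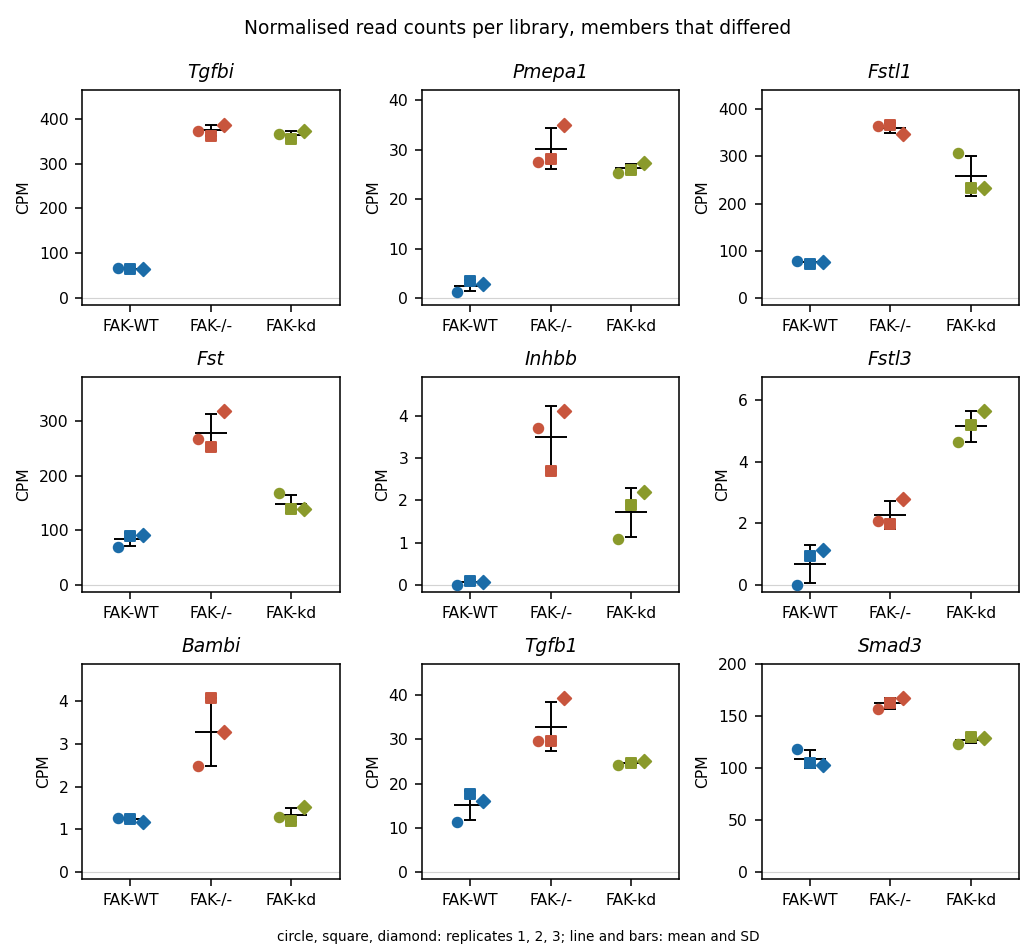
Normalised read counts (CPM, linear axis from 0) of 9 of the genes in each library of the 3 lines, with the mean and SD of 3 libraries. Tgfbi and Pmepa1 are low in FAK-WT cells only, Bambi is high in FAK-/- cells only, Fstl3 is highest in FAK-kd cells, and Fst, Tgfb1 and Smad3 lie in FAK-kd cells between the other 2 lines.

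Among the roles of this first list, the secreted antagonists had the most called genes. Against FAK-/- cells 3 of 5 were called lower (Fst, Fstl1 and Fstl3), and against FAK-kd cells 2 of 5 (Fstl1 and Fstl3). Of all genes, 3.06% and 2.89% were called lower. Among the further pathway genes described below, 2 of 11 secreted antagonists were called lower in each comparison. The call of Fstl3 against FAK-/- cells was lost under 3 alternatives to the main fit. Whether such a count within a role is unusual was not tested. Follistatin, the product of Fst, binds activins and keeps them from their receptors. Fst was at 69.2, 89.2 and 92.0 CPM in FAK-WT, 267, 251 and 317 in FAK-/- and 168, 139 and 138 in FAK-kd libraries. No library of 1 line reached the range of another. Relative to FAK-/- cells the log2 fold change of FAK-WT cells was -1.67 ± 0.11 (adjusted p = 4.66e-08), relative to FAK-kd cells it was -0.76 ± 0.11 (adjusted p = 0.000125), and FAK-kd relative to FAK-/- cells gave -0.91 ± 0.10 (adjusted p = 3.98e-05). Per kilobase of transcript Fst was the most abundant antagonist, at 75.0 CPM per kb in FAK-WT and 250.2 in FAK-/- cells on average.

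Fstl1, a follistatin-like glycoprotein that is known to restrain BMP signaling, was at 79.3, 72.4 and 77.6 CPM in FAK-WT, 365, 367 and 347 in FAK-/- and 306, 232 and 234 in FAK-kd libraries. The 3 lines did not overlap, and FAK-kd replicate 1 lay nearest to the FAK-/- libraries. FAK-WT cells had 4.76-fold less than FAK-/- cells (-2.25 ± 0.10, adjusted p = 1.02e-09) and 3.41-fold less than FAK-kd cells (-1.77 ± 0.10, adjusted p = 1.15e-08). FAK-kd cells were below FAK-/- cells by a smaller amount (-0.48 ± 0.09, adjusted p = 0.00429), and without FAK-kd replicate 1 that difference was -0.63.

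Fstl3, another follistatin-related activin binder, was the one gene higher in FAK-kd than in FAK-/- cells. It was at 0, 0.931 and 1.15 CPM in FAK-WT, 2.07, 1.97 and 2.79 in FAK-/- and 4.62, 5.18 and 5.62 in FAK-kd libraries. The order FAK-kd, FAK-/-, FAK-WT held without overlap. FAK-kd cells were 2.25-fold above FAK-/- cells (1.17 ± 0.23, adjusted p = 0.00516), and FAK-WT cells were below FAK-kd cells by -2.34 ± 0.28 (adjusted p = 2.18e-05) and below FAK-/- cells by -1.17 ± 0.28 (adjusted p = 0.00785). Of its 31-base words 46.7% also occur in transcripts of other genes, so its level is uncertain, and without FAK-/- replicate 3 the fold change of FAK-WT over FAK-/- cells was -0.99, just inside the limit. Without FAK-WT replicate 2 its adjusted p was 0.0854. Grem1, the BMP antagonist gremlin, was at 110 to 141 CPM in all lines and passed no test. Chrd, the BMP antagonist chordin, stayed at or under 0.576 CPM.

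Among the membrane and nuclear repressors Bambi, a pseudoreceptor without a kinase, was distinct from Pmepa1. It was at 1.26, 1.25 and 1.18 CPM in FAK-WT, 2.49, 4.06 and 3.27 in FAK-/- and 1.29, 1.20 and 1.52 in FAK-kd libraries. FAK-WT and FAK-kd libraries overlapped, and all FAK-/- libraries lay above both. Against FAK-/- cells FAK-WT cells gave -1.42 ± 0.28 (adjusted p = 0.00222) and FAK-kd cells -1.28 ± 0.25 (adjusted p = 0.00462), while FAK-WT and FAK-kd cells differed by -0.13 ± 0.28 (adjusted p = 0.815). Skil and Tgif1, which repress Smad target genes in the nucleus, were lower in FAK-WT cells by less than the fold limit. Skil was at 29.9 to 31.6 CPM in FAK-WT, 39.9 to 49.3 in FAK-/- and 48.6 to 50.8 in FAK-kd libraries, with fold changes of -0.57 ± 0.10 and -0.70 ± 0.10 (adjusted p = 0.000947 and 0.000139). Tgif1 was at 70.5 to 86.8, 143 to 151 and 112 to 127 CPM, with -0.80 ± 0.08 and -0.53 ± 0.08 (adjusted p = 3.64e-06 and 0.000176). Ski, a repressor related to Skil, was at 138 to 196 CPM and did not pass the adjusted p in any comparison.

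The ligands of the TGF-beta and activin branch did not move together. Inhbb, which encodes the beta B subunit of activin and inhibin, gave the lowest fold change of all 52 genes. It had 0, 4 and 3 counts in the FAK-WT libraries and 0.106 and 0.0865 CPM in the deep libraries of that line. It was at 3.72, 2.68 and 4.10 CPM in FAK-/- and 1.08, 1.89 and 2.20 in FAK-kd libraries. The FAK-WT libraries lay below all others, and every FAK-kd library lay below every FAK-/- library. Pooled over the line, FAK-WT cells had 7 counts and FAK-/- cells 320, a ratio of 37.1 after scaling to depth (95% exact interval 17.8 to 93.1), and FAK-kd cells had 174, a ratio of 18 (8.55 to 45.4). Both intervals cover counting error only and not the spread between replicates. edgeR's quasi-likelihood test gave -5.14 ± 0.46 against FAK-/- cells (adjusted p = 1.07e-06) and -4.11 ± 0.46 against FAK-kd cells (adjusted p = 1.23e-05). FAK-kd over FAK-/- cells was just past the threshold (-1.02 ± 0.28, adjusted p = 0.0386), and without FAK-kd replicate 1 it was -0.79 with an adjusted p of 0.128. This level is low even in FAK-/- cells, at 0.822 CPM per kb.

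Tgfb1 and Tgfb3, the most abundant ligands per length in FAK-/- cells, were lower in FAK-WT cells by less than the fold limit. Tgfb1 was at 11.3, 17.8 and 16.1 CPM in FAK-WT, 29.6, 29.7 and 39.3 in FAK-/- and 24.3, 24.7 and 25.2 in FAK-kd libraries. The 3 lines did not overlap. Tgfb1 differed by -0.99 ± 0.13 for FAK-WT over FAK-/- cells (adjusted p = 6.06e-05), -0.58 ± 0.13 for FAK-WT over FAK-kd cells (adjusted p = 0.00518) and -0.41 ± 0.12 for FAK-kd over FAK-/- cells (adjusted p = 0.0432). Without FAK-/- replicate 3, whose Tgfb1 value was the highest, the first was -0.83 and the last -0.26. Tgfb3 was at 24.3 to 31.5, 38.2 to 43.7 and 36.7 to 39.1 CPM, with -0.69 ± 0.10 and -0.60 ± 0.10 (adjusted p = 0.000194 and 0.000601). Inhba, the beta A subunit of activin, was at 23.7 to 31.6 CPM in all libraries and passed no test. Gdf11, an activin-like ligand, was raised in FAK-WT relative to FAK-kd cells (0.47 ± 0.10, adjusted p = 0.00306), with 32.0 to 35.2 against 23.3 to 25.1 CPM, and Tgfb2 and Inha stayed under 2 CPM.

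Of the BMP ligands Bmp2 alone passed the filter on low counts. It was at 4.24 to 6.29 CPM in FAK-WT, 3.35 to 3.91 in FAK-/- and 2.49 to 4.16 in FAK-kd libraries, and no comparison passed the adjusted p. Bmp3, Bmp4 and Bmp6 had at most 6 counts in any library and Bmp7 at most 13, and none of them passed the adjusted p in any comparison. Bmp7 gave 1.78 ± 0.71 against FAK-/- cells (adjusted p = 0.103).

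The latent TGF-beta binding proteins, some of which hold the secreted ligand in the matrix, were split. Ltbp1 was at 204 to 211 CPM in FAK-WT, 273 to 312 in FAK-/- and 261 to 312 in FAK-kd libraries, and differed by -0.50 ± 0.08 and -0.47 ± 0.08 (adjusted p = 0.000358 and 0.000527). Ltbp4 was at 64.9 to 76.8, 109 to 160.0 and 109 to 124 CPM, with -0.87 ± 0.13 and -0.74 ± 0.13 (adjusted p = 0.000179 and 0.000643). All FAK-WT libraries were below all others in both genes. Ltbp3 (188 to 259.7 CPM) and Bmp1 (72.8 to 96.6 CPM), a protease that cleaves procollagen and chordin, passed no test. Ltbp2 was called lower, at 0, 0.346 and 0.115 CPM in FAK-WT, 0.599, 0.986 and 0.672 in FAK-/- and 1.38, 1.08 and 1.46 in FAK-kd libraries. It differed by -1.69 ± 0.48 (adjusted p = 0.0219) and -2.50 ± 0.47 (adjusted p = 0.00134), on 17 counts in all FAK-WT libraries together, and the first call was lost without FAK-WT replicate 3 (adjusted p = 0.223) or FAK-/- replicate 2 (adjusted p = 0.0682).

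The receptors differed less, and in both directions. Tgfbr2, the type II receptor that binds TGF-beta first, was at 94.4, 89.3 and 88.6 CPM in FAK-WT, 64.3, 62.3 and 67.6 in FAK-/- and 63.0, 65.8 and 64.9 in FAK-kd libraries. All FAK-WT libraries were above all others, by 0.47 ± 0.07 (adjusted p = 0.000209) and 0.48 ± 0.07 (adjusted p = 0.000185). Tgfbr1, its type I partner, was at 39.1 to 41.4 CPM in FAK-WT, 41.3 to 51.5 in FAK-/- and 54.7 to 57.2 in FAK-kd libraries, and passed the test against FAK-kd cells alone (-0.47 ± 0.10, adjusted p = 0.0029). Tgfbr3, the co-receptor betaglycan, was raised in FAK-WT relative to FAK-/- cells (0.34 ± 0.09, adjusted p = 0.0142, up to 0.0636 without FAK-WT replicate 2 or 3) and was at 45.3 to 69.2 CPM throughout.

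The activin type I receptor Acvr1b was lower in FAK-WT cells (15.1 to 16.8 CPM against 25.2 to 26.1 and 25.2 to 29.2), by -0.63 ± 0.10 and -0.71 ± 0.10 (adjusted p = 0.000262 and 7.88e-05). Acvr1, a BMP type I receptor, passed against FAK-kd cells alone (-0.49 ± 0.11, adjusted p = 0.00608, and 0.0558 without FAK-kd replicate 3). The BMP receptors Bmpr1a (113 to 157 CPM) and Bmpr2 (40.8 to 57.8 CPM) passed no test, nor did Acvr2a and Acvr2b, and Bmpr1b had at most 1 count per library. Eng, the co-receptor endoglin, was called at a low level, with 0, 1.41 and 1.53 CPM in FAK-WT, 2.70, 2.17 and 3.81 in FAK-/- and 2.73, 3.15 and 2.90 in FAK-kd libraries. It differed by -1.04 ± 0.30 (adjusted p = 0.0258) and -1.05 ± 0.30 (adjusted p = 0.0235), and without FAK-WT replicate 1 by -0.98 and -0.99, inside the limit. Without FAK-WT replicate 2 or 3 neither call passed the adjusted p (0.128 and 0.0901 against FAK-/- cells, 0.127 and 0.0872 against FAK-kd cells). The call against FAK-/- cells was also lost without FAK-/- replicate 3 or FAK-kd replicate 3, and the call against FAK-kd cells without FAK-kd replicate 2 or 3.

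Smad4, the common partner, and Smad2 passed no test, and their intervals were narrow. Smad4 was at 118 to 134 CPM in the 9 libraries, with log2 fold changes of 0.02 ± 0.07, 0.01 ± 0.07 and 0.01 ± 0.06 in the 3 comparisons, and Smad2 at 66.1 to 75.3 CPM with fold changes between -0.07 and 0.04. Smad3, by contrast, was at 118, 105 and 103 CPM in FAK-WT, 157, 163 and 167 in FAK-/- and 124, 129.6 and 129 in FAK-kd libraries. The lines did not overlap, and the differences were -0.61 ± 0.07 (adjusted p = 1.43e-05), -0.26 ± 0.07 (adjusted p = 0.0158) and, for FAK-kd over FAK-/- cells, -0.35 ± 0.07 (adjusted p = 0.00335). Of the BMP Smads, Smad5 was at 82.3 to 83.1 CPM in FAK-WT, 108 to 117 in FAK-/- and 106 to 123 in FAK-kd libraries (-0.46 ± 0.07 and -0.48 ± 0.07, adjusted p = 0.000454 and 0.000286). Smad1 was at 31.5 to 33.2, 37.2 to 39.3 and 35.4 to 37.0 CPM and passed no test (-0.22 ± 0.09 and -0.15 ± 0.09, adjusted p = 0.0917 and 0.295).

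Smad9 was called lower on few counts. It was at 0, 0.16 and 0.0577 CPM in FAK-WT, 0.240, 0.355 and 0.8 in FAK-/- and 0.929, 0.419 and 0.644 in FAK-kd libraries, with 8 counts in the FAK-WT libraries together. It differed by -2.06 ± 0.67 (adjusted p = 0.0441) and -2.57 ± 0.66 (adjusted p = 0.0118), and without FAK-/- replicate 3 the first was -1.40 with an adjusted p of 0.158. The first was also lost without any 1 FAK-WT library or without FAK-kd replicate 1 or 3, with adjusted p-values of up to 0.272. The second was lost without FAK-kd replicate 1 (-2.24, adjusted p = 0.0505) or FAK-WT replicate 3 (-2.07, adjusted p = 0.129).

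Smurf1, a ubiquitin ligase that marks BMP Smads and receptors for degradation, was lower in FAK-WT cells at 113 to 117 CPM, against 173 to 201 in FAK-/- and 139 to 146 in FAK-kd libraries. It differed by -0.68 ± 0.07 and -0.30 ± 0.07 (adjusted p = 6.28e-06 and 0.00734), and FAK-kd cells were below FAK-/- cells by -0.38 ± 0.07 (adjusted p = 0.00235). Smurf2, its close relative, was at 73.3 to 88.6 CPM and passed no test. The inhibitory Smads Smad6 (at most 3.23 CPM) and Smad7 (19.0 to 32.3 CPM) did not pass the adjusted p. For Smad6 the differences were -1.14 ± 0.38 against FAK-/- cells (adjusted p = 0.0523) and -0.95 ± 0.38 against FAK-kd cells (adjusted p = 0.109). Its FAK-WT libraries lay below all others, replicate 1 with 0 counts. With 1 library left out the first ranged from -1.30 to -0.68, and it was called without FAK-/- replicate 1 or 2.

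Set side by side, the 3 comparisons sort the genes into several arrangements, although each pair of comparisons shares libraries and none is independent support for another. By adjusted p alone, 11 genes were below both other lines in FAK-WT cells with no difference called between FAK-kd and FAK-/- cells: Tgfb3, Ltbp1, Ltbp2, Ltbp4, Acvr1b, Eng, Smad5, Smad9, Pmepa1, Skil and Tgfbi. With 1 library left out, the difference from FAK-/- cells lost the adjusted p in 2 of 9 fits for Ltbp2, 4 for Eng and 6 for Smad9. The difference from FAK-kd cells lost it in 4 of 9 fits for Eng and 2 for Smad9. Ltbp2 gave 0.80 ± 0.37 for FAK-kd over FAK-/- cells (adjusted p = 0.235), and those libraries did not overlap. In 7 genes FAK-WT cells were again below both other lines, and FAK-kd cells were below FAK-/- cells. FAK-kd cells thus lay between the other lines in Tgfb1, Inhbb, Smad3, Smurf1, Fst, Fstl1 and Tgif1. This middle place was not stable for 5 of the 7 when 1 library was left out at a time. The difference of FAK-kd from FAK-/- cells lost the adjusted p in 5 of 9 such fits for Tgfb1 (up to 0.135), in 7 of 9 for Inhbb (up to 0.128) and in 7 of 9 for Tgif1 (up to 0.15), the 5 shared by all 3 genes being those without FAK-WT replicate 2 or 3 or any 1 FAK-kd library. For Inhbb the others were without FAK-/- replicate 1 or 3, and for Tgif1 without FAK-/- replicate 1 or 2. The difference of FAK-WT from FAK-kd cells was lost in 4 of 9 for Smad3 (up to 0.152, without replicate 2 or 3 of either line) and, without FAK-WT replicate 3, in 1 of 9 for Smurf1 (0.0544). Across all genes, 3.88% were lower and 3.97% higher in FAK-kd than in FAK-/- cells by this rule. In FAK-WT cells 9.96% were lower against FAK-/- cells and 10.2% against FAK-kd cells. The share of all genes in each arrangement was not computed, so whether the counts of genes per arrangement are unusual was not tested. Tgfbr2 alone was higher in FAK-WT cells than in both other lines. Tgfbr3 was higher in FAK-WT cells against FAK-/- cells only, and Gdf11 against FAK-kd cells only. Id3 was lower in FAK-WT cells against FAK-/- cells only, and Tgfbr1 and Acvr1 against FAK-kd cells only. Bambi alone was lower in both FAK-expressing lines than in FAK-/- cells with no difference called between them, Fstl3 alone was raised in FAK-kd cells, and 26 of the 52 passed no test.

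The Id genes, which encode inhibitors of basic helix-loop-helix factors and are induced by BMP Smads, differed between libraries of 1 line. Id1 was at 60.4, 63.8 and 69.0 CPM in FAK-WT, 62.2, 63.0 and 115 in FAK-/- and 96.0, 54.8 and 55.3 in FAK-kd libraries. Id3 was at 126, 101 and 107 CPM in FAK-WT, 149, 149 and 258 in FAK-/- and 189, 112 and 117 in FAK-kd libraries. In both genes FAK-/- replicate 3 and FAK-kd replicate 1 were the highest of the 9 libraries, and they were also the libraries that stood apart from their lines. Id3 was 1.74 times the mean of the other FAK-/- libraries in the first and 1.65 times that of the other FAK-kd libraries in the second, and Id1 1.84 and 1.74 times. Smad9 (2.69 and 1.75 times) and Acvr2b (2.57 and 1.89 times) were raised in the same libraries at lower levels, and Chrd (4.30 times) and Inha (2.12 times) in FAK-/- replicate 3. In FAK-kd replicates 1, 2 and 3 Smad9 had 31, 14 and 22 counts. Acvr2b had 47, 36 and 14, so its ratio there rests largely on a low replicate 3. Inhbb (0.53 times) and Bmp2 (0.69 times) went the other way in FAK-kd replicate 1.

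Id2 was raised in FAK-kd replicate 1 (40.7 against 19.4 and 20.8 CPM) but hardly in FAK-/- replicate 3 (32.3 against 29.1 and 29.1 CPM). Smad6, itself a BMP target, was 2.09 and 1.42 times and Smad7 1.40 and 1.20 times the other libraries of the line. Of the 47 genes that passed the filter, 9 deviated by over 0.5 on the log2 scale in FAK-/- replicate 3 and 8 in FAK-kd replicate 1, where 14.1% and 8.00% of all genes did. In FAK-/- replicates 1 and 2 it was 6 and 8 of the 47, and 8.04% and 8.12% of all genes. In FAK-kd replicates 2 and 3 it was 2 and 4, and 6.55% and 6.48% of all genes. The transcripts of Id1 and Id3 have a GC content of 55.2% and 55.6%, and the part of GC content in the FAK-/- values was not tested. Between the lines, Id1 and Id2 passed no test, and Id3 was below its FAK-/- level in FAK-WT cells (-0.78 ± 0.22, adjusted p = 0.0211, up to 0.0973 without FAK-WT replicate 2 or 3). Without FAK-/- replicate 3 this difference was -0.49 with an adjusted p of 0.0198. Without FAK-kd replicate 1, Id2 in FAK-WT cells exceeded FAK-kd cells by 1.03 (adjusted p = 0.000128), against 0.59 ± 0.22 (adjusted p = 0.0881) with it.

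**Figure D4:**
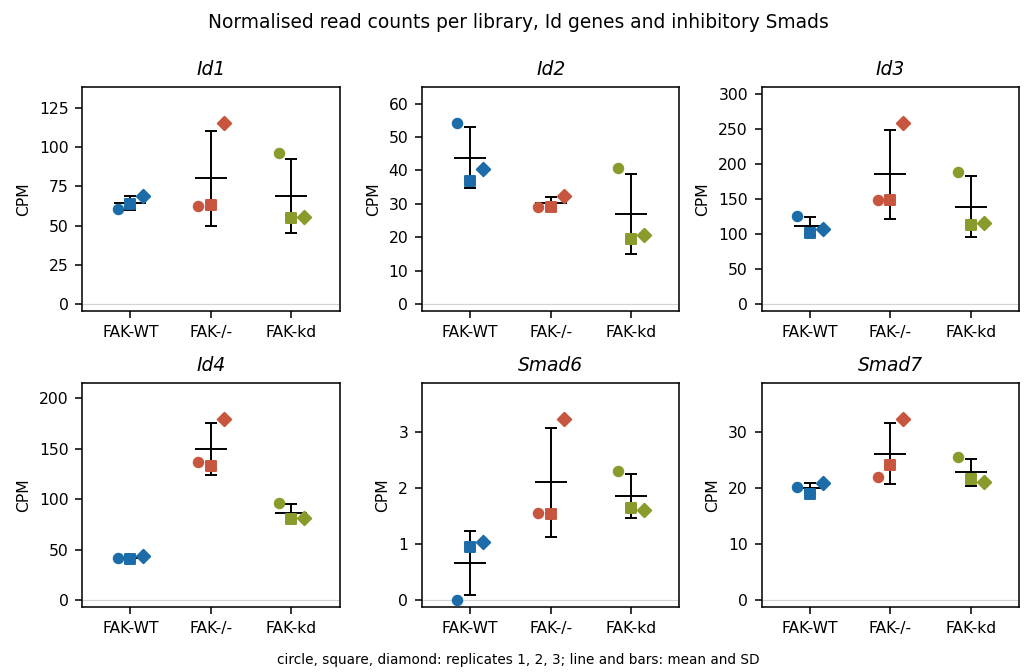
Normalised read counts (CPM, linear axis from 0) of 4 Id genes and the inhibitory Smads in each library of the 3 lines, with the mean and SD of 3 libraries. The diamond of FAK-/- cells (replicate 3) and the circle of FAK-kd cells (replicate 1) lie above the other libraries of their line in Id1, Id3, Id4, Smad6 and Smad7.

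A further 109 names of the same pathways were examined by role, of which 91 were in the table. Of the 91, FAK-WT cells had 13 called lower and 4 higher against FAK-/- cells and 13 lower and 1 higher against FAK-kd cells, and FAK-kd cells had 1 lower and 1 higher against FAK-/- cells. The shares over all genes were 3.06% lower and 2.32% higher, 2.89% and 2.37%, and 1.09% and 0.914%, so that the last counts are near the share over all genes. In all, 20 genes were called at least once, and the 10 with a mean normalised count of at least 100 are described.

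The secreted antagonists and intracellular components among them went the same way as the genes called above. Nbl1, a secreted BMP antagonist of the DAN family, was at 5.04 to 6.03 CPM in FAK-WT, 49.4 to 64 in FAK-/- and 47.2 to 54.9 in FAK-kd libraries (-3.20 ± 0.13 and -3.12 ± 0.13, adjusted p = 4.52e-10 and 3.77e-10). Tgif2, a relative of Tgif1, was at 1.26 to 6.07, 19.9 to 27.9 and 24.1 to 26.2 CPM (-2.04 ± 0.16 and -2.11 ± 0.16, adjusted p = 2.94e-07 and 2.13e-07), with 70.4% of its 31-base words shared with other genes. Hipk2, a kinase that binds Smad corepressors, was at 0, 3.11 and 2.91 CPM in FAK-WT and 10.5 to 14.0 in all other libraries (-2.03 ± 0.19 and -2.07 ± 0.19, adjusted p = 2.40e-06 and 2.00e-06). Usp11, a deubiquitinase, was called against FAK-/- cells alone (-1.32 ± 0.25, adjusted p = 0.00134).

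The matrix genes Htra1 and Thbs1 were highest in FAK-kd cells. Htra1, a secreted protease that cleaves TGF-beta family proteins, was at 40.3 to 54.4 CPM in FAK-WT, 138 to 153 in FAK-/- and 233 to 245 in FAK-kd libraries (-1.48 ± 0.08 and -2.20 ± 0.08, adjusted p = 6.51e-09 and 1.14e-10). Thbs1, whose product thrombospondin 1 can release latent TGF-beta, was at 325 to 362, 387 to 427 and 617 to 811 CPM. It was called lower against FAK-kd cells (-1.10 ± 0.09, adjusted p = 7.04e-07) and not against FAK-/- cells (-0.24 ± 0.09, adjusted p = 0.0825).

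The target genes did not share a direction. Acta2, smooth muscle actin, was at 0, 1.49 and 1.44 CPM in FAK-WT, 73.9, 72.2 and 78.7 in FAK-/- and 118, 106 and 100.3 in FAK-kd libraries, a fold change of -5.69 ± 0.14 against FAK-/- cells (adjusted p = 1.16e-12). Id4, the fourth Id gene, was at 40.6 to 43.5, 133 to 179 and 80.6 to 96.8 CPM (-1.83 ± 0.12 and -1.04 ± 0.12, adjusted p = 3.87e-08 and 1.26e-05). Snai2, a repressor of epithelial genes, was higher in FAK-WT cells, at 45.7 to 46.6 CPM against 17.8 to 21.2 and 21.9 to 26.7 (1.21 ± 0.11 and 0.89 ± 0.11, adjusted p = 1.05e-06 and 2.26e-05). Col1a2, a collagen chain, was called higher in FAK-kd than in FAK-/- cells alone (1.29 ± 0.25, adjusted p = 0.00469). Ccn2, which fell under the count limit and was chosen after its values were seen, had 0 counts in every FAK-WT library and at most 0.480 CPM elsewhere.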

How the data were processed

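RNA was sequenced as paired-end reads from unstranded TruSeq v2 libraries of 3 SCC cell lines, grouped by the sample titles, with 3 biological replicates each. The authors pseudoaligned the reads with kallisto (version 0.43.1 in the submitters' processing notes, which name GRCm38 and mm10) and summed transcripts to genes with tximport. The deposited estimated counts are rounded and not scaled to depth. The transcriptome release is not given in the sources used here.

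The genes and lists were chosen with earlier results of these data known. All 19044 identifiers of the 9 libraries entered 1 fit in edgeR 4.0.16 (R 4.3.3) with TMM normalisation and the quasi-likelihood test, with cell line as factor. Adjusted p-values are Benjamini-Hochberg values over all identifiers. SE is the log2 fold change divided by the square root of the F statistic. CPM are TMM-normalised, and CPM per kb uses the longest APPRIS principal transcript of GENCODE M21 on GRCm38. The share of 31-base words found in other genes' transcripts marks genes whose reads may have been split. Genes given with values in every library are those past the threshold in at least 1 comparison, and of the further pathway genes up to 5 per role with a mean normalised count of at least 100 and the largest fold change, with Ptk2 as a check of the labels. Smad3 and Tgfb1 were added after their values were seen, as were the Id genes, Tgfbr2 and Ccn2. Nothing says that the replicates came from separate clones, so p-values measure the spread between these cultures. The fit was tested on simulated counts. DESeq2 1.42.0, other scalings, a filter on low counts, fits of the compared lines alone, a replicate block, a test against the fold limit (glmTreat) and leaving out each library were tried as alternatives.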

Additional observations from a re-analysis of the deposited data

How the results depend on the processing

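The counts of called genes were compared over 17 alternatives. In the alternatives other than glmTreat, where single genes were followed, none of the listed genes past the threshold reversed its sign. Testing against the fold limit with glmTreat left 5 genes lower in FAK-WT cells against FAK-/- cells and 6 against FAK-kd cells. Of the further pathway genes it left 8 against FAK-/- cells and 8 against FAK-kd cells. Between FAK-kd and FAK-/- cells it left 0 higher, 0 lower and 1 further pathway gene. DESeq2 gave 7 genes lower in FAK-WT cells against FAK-/- cells and 6 against FAK-kd cells, and fits of the compared lines alone 7 and 8. For genes lower in FAK-kd than in FAK-/- cells, DESeq2 gave 1, a fit of the compared lines alone 1, and leaving out FAK-/- replicate 3 and FAK-kd replicate 1 together (an alternative chosen after seeing the data) 1, Inhbb being the gene lost. DESeq2 also gave 1 further pathway gene there. Leaving out 1 library at a time gave 7 to 12 genes lower against FAK-/- cells, 6 to 8 against FAK-kd cells, 1 to 2 lower in FAK-kd than in FAK-/- cells, 0 to 1 higher in FAK-WT cells against FAK-kd cells (Id2 without FAK-kd replicate 1) and 11 to 18 further pathway genes in the first comparison. Tgfb1, at -0.99, was past the fold limit without FAK-WT replicate 2, FAK-/- replicate 1 or FAK-/- replicate 2. Against FAK-/- cells the FAK-WT calls of Smad9, Eng, Ltbp2 and Fstl3 were lost under 10, 8, 4 and 3 alternatives and the FAK-kd call of Inhbb under 10. Against FAK-kd cells those of Eng and Smad9 were lost under 6 and 3. The cause of these changes was not tested.

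No pairing by replicate number was seen: the deviations of same-numbered libraries correlated between -0.0464 and 0.0453. A pairing could be missed here, because FAK-WT replicate 1 with its low depth set the deviations of its line (r of -0.93 with replicates 2 and 3). The libraries that stood apart in the other lines, FAK-/- replicate 3 and FAK-kd replicate 1, carry different numbers. With the number as a replicate block, 10 genes were lower against FAK-/- cells and 8 against FAK-kd cells, as without it, and 14 and 15 further pathway genes were called. Tgfb1 was past the fold limit and Smad9 against FAK-/- cells no longer past the adjusted p with the block.

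Depth limits what FAK-WT replicate 1 can show: 35 of the 52 genes had over 3 counts there, against 46 to 49 in the other libraries.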

Other observations

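Rnf111, a ubiquitin ligase known to lift repression of Smad target genes, had 0 counts in FAK-WT replicate 1, where the mean level of the other FAK-WT libraries corresponds to 24 counts, and lay between 28.9 and 37.6 CPM in the other 8 libraries. Of 6610 genes over 20 CPM in all of those 8 libraries, 13 had 0 counts in FAK-WT replicate 1.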
